A study of Mus musculus with 2 samples.

Results

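The 9 genes described here encode proteins that hold, recycle or cap actin: the filament-disassembly factors Wdr1, Cfl1 and Dstn, the monomer-binding proteins Pfn1, Cap1, Tmsb4x and Tmsb10, the Arp2/3 subunit Arpc2 and the capping subunit Capzb. They were taken by name, and all 9 were found among the 27998 genes of the count matrices. Their levels were compared between mouse iPSCs (induced pluripotent stem cells, made from differentiated cells by reprogramming and able to form all tissues of the body) that carry deleted Srf alleles (SRFΔ/Δ, knockout) and cells with intact floxed alleles (SRFf/f, wild type), both cultured with serum. Srf encodes serum response factor, a transcription factor. Each genotype is represented by 1 single-cell library made on the 10x Genomics Chromium platform, and the labels name neither clones, passages nor how the floxed alleles were recombined. Genotype and library therefore cannot be told apart, no test was possible, and every interval below is a 95% interval of counting error only.

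Actin filaments grow by addition of monomers at one end and are taken apart at the other, so a cell's supply of free monomer depends on how fast old filaments are severed and on which proteins hold the monomers. SRF and its cofactors of the MRTF family connect this cycle to transcription: MRTFs bind free actin monomers and enter the nucleus to work with SRF when the monomer pool shrinks. Actin itself and many genes of the actin cytoskeleton are known targets of SRF.

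Values rest on cells with at least 1000 detected genes, 1 to 10% mitochondrial UMIs (unique molecular identifiers, each standing for 1 captured RNA molecule) and fewer than 5 UMIs summed over the fibroblast genes Col1a2, Col3a1 and Acta2. This kept 731 of 1073 knockout cells with 18203451 UMIs and 893 of 954 wild-type cells with 23270714 UMIs, and the median cell held 24423 and 26656 UMIs. Both groups carried all 10 pluripotency markers examined, and the knockout held them at a sum of 9603 CPM (counts per 1000000 UMIs) against 13376 CPM in wild-type cells. Srf had 3 UMIs in the knockout cells and 202 in the wild-type cells, a log2 ratio of -5.50 (interval -8.01 to -4.15). Actb and Actg1, the cytoplasmic actins, had log2 ratios of -1.82 and -2.08. The libraries shared 2 cell barcodes, 1 of them among the kept cells.

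Among the kept cells, 94 knockout cells and 3 wild-type cells held at least 10 UMIs over the primitive endoderm genes Gata6, Gata4, Sox17, Pdgfra, Dab2, Cubn, Lrp2 and Amn, and are called endoderm-gene-high. The limit cuts a continuous range: 15 knockout cells had 5 to 9 of these UMIs and 13 had 10 to 14. In the 94 cells the median cell held the 8 endoderm genes at 2243 CPM and the 10 pluripotency markers at 4236 CPM, against 0 and 9689 CPM in the other 637 knockout cells. A few kept cells had at least 10 UMIs over the macrophage genes Ptprc, Cd68, Fcer1g and Tyrobp, with 5 knockout and 4 wild-type cells among them, and no other kept cell had more than 5. These cells held Dab2, 45 and 32 UMIs, but no UMI of the other 7 endoderm genes, and through Dab2 alone 2 of them in each library met the endoderm limit. They held Tmsb4x at 6260 to 26595 CPM, so its main log2 ratios are given with and without them. Values per actin UMI, correlations between cells and the split of cells by actin RNA keep them.

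In the comparison of all kept cells, Wdr1 was lower in the knockout by more than the 0.5 log2 units used as the limit, and no member was higher by that much. Of the 8 members with a mean of at least 10 CPM, 1 was lower, where 3.95% of the 6554 genes at that level were, and 0 were higher, where 10.2% were. The members' median log2 ratio was 0.01, against 0.09 over all genes. With the libraries scaled by TMM, which takes the bulk of genes as unchanged, 6.35% of all genes were lower and 6.60% higher, and the median over all genes moved by -0.11. Log2 ratios within about that distance of 0 therefore have no fixed sign, which touches Dstn, Pfn1 and Arpc2.

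**Figure D1:**
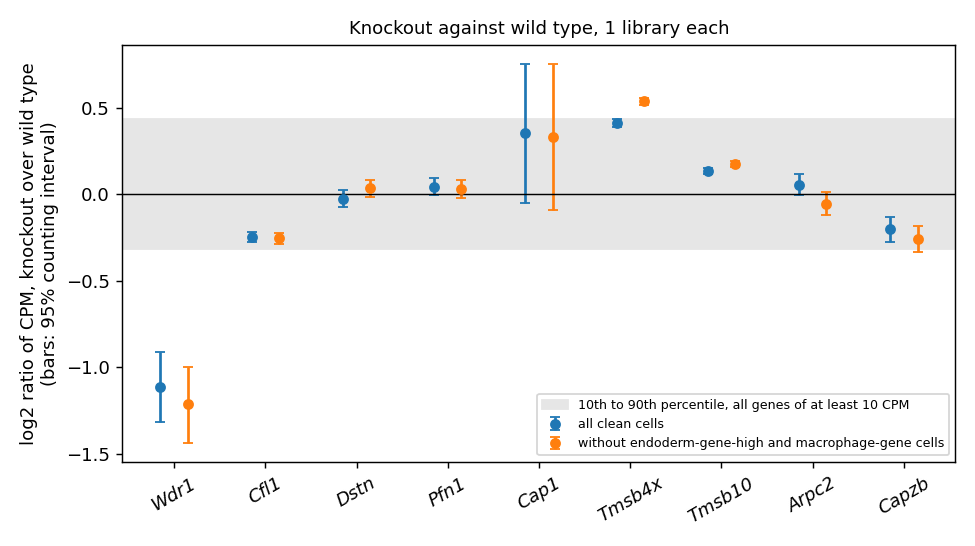
Log2 ratio of CPM, knockout over wild type, for the 9 members, in all kept cells (blue) and without endoderm-gene-high and macrophage-gene cells (orange). Bars are 95% counting intervals, and the grey band spans the 10th to 90th percentile of all genes of at least 10 CPM in the second comparison. Wdr1 lies below the band at -1.11, Tmsb4x at 0.41 moves above the band without those cells, and the other members of at least 10 CPM lie within it.

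Wdr1 encodes the cofactor (AIP1) that lets cofilin take filaments apart more fully. It had 275 UMIs in the knockout cells (15.1 CPM, interval 13.4 to 17.0) and 760 in the wild-type cells (32.7 CPM, interval 30.4 to 35.1), which is 2.16-fold lower. The log2 ratio was -1.11 (interval -1.32 to -0.91), and 0.458% of all genes had a lower one. Fewer knockout cells carried it: in cells thinned to 10562 UMIs each, 14.4% of 661 knockout cells had a Wdr1 UMI (interval 11.8 to 17.3) and 28.6% of 800 wild-type cells did (interval 25.5 to 31.9). At full depth they came to 30.9% and 52.3%. Fibroblast-gene cells, left out of these values, held much Wdr1, at 157.9 CPM in 22 cells of the knockout library and 79.2 CPM in 10 of the wild-type library. Those 22 cells held 14 Srf UMIs (22.6 CPM) and the pluripotency markers at only 387 CPM, unlike the kept knockout cells. With fibroblast-gene cells kept the log2 ratio of Wdr1 was -0.73, a value that mixes both kinds of cell.

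The other disassembly factors differed less between the libraries. Cfl1 encodes cofilin-1, which severs older filaments. It stood at 755.9 CPM in the knockout and 896.2 CPM in the wild type, a log2 ratio of -0.25 (interval -0.28 to -0.21). Dstn encodes destrin, a cofilin relative that also binds monomers. It stood at 315.9 and 321.4 CPM, a log2 ratio of -0.03 (interval -0.08 to 0.02). Of each 100 UMIs of the pair, Dstn gave 29.5 in the knockout (interval 28.8 to 30.1) and 26.4 in the wild type (interval 25.9 to 26.9), so the pair's balance leaned slightly more to Dstn in the knockout. The left-out knockout cells of under 1% mitochondrial UMIs, 244 shallow cells with a median of 8632 UMIs, held more of both, Cfl1 at 1200.4 CPM and Dstn at 569.2 CPM. With them kept the log2 ratios were -0.13 and 0.12, so the sign for Dstn depends on that limit too.

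The upstream DNA of these 3 genes carried inexact forms of the CArG box, the site that SRF binds, which has CC, then 6 letters that are A or T, then GG, and reads the same way on both strands. It was searched on both strands in RefSeq promoters of GRCm38.p6, from 250 bases before to 50 after a gene's start. All 9 members had at least 1 of 11 promoters in the table. None held an exact box, which 1.63% of 32851 promoters did. Wdr1, Cfl1 and Dstn held a box with at most 1 mismatch, as did 21.1% of all promoters. Dstn held 2 of them, and the one after its start, within the UTR of Dstn-201, is not shown. The boxes before the start are shown with 10 bases on each side and the box in capitals, since SRF is the factor deleted here, and that of Actg1, which is exact, stands beside them.
Wdr1: gagcgcttgaCTATATATGGtcaaagctgg
Cfl1: tggctcagagCGTTTTTTGGtccattgcac
Dstn: gtggcgacttCCATGTATGGgcaaaggccg
Actg1: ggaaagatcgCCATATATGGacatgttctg
Counted from 1 at the 5′ end of the box, Wdr1 differs from the box by C2T and Cfl1 by C2G, while the mismatch of Dstn lies inside the run of A and T. The Wdr1 run lies at chr5:38561733-38561762 on the minus strand, with its box 53 to 44 bases before the RefSeq start, and within the UTR of a longer GENCODE M21 transcript, Wdr1-201. The Cfl1 run lies at chr19:5490280-5490309 on the plus strand with its box 165 to 156 bases before the start. The Dstn run lies at chr2:143915215-143915244 on the plus strand with its box 106 to 97 bases before the start. The Actg1 run lies at chr11:120348566-120348595 on the minus strand with its box 90 to 81 bases before the start. Thus Wdr1, lower in the knockout, and Dstn, level between the libraries, each held at least 1 box with 1 mismatch, and these matches are a description of letters and show no binding.

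None of the monomer-binding genes was lower in the knockout beyond its counting interval. Tmsb4x encodes thymosin beta 4, a small peptide that holds monomers out of filaments. It stood at 1966 CPM in the knockout (interval 1946 to 1986) and 1476 CPM in the wild type (interval 1461 to 1492), a log2 ratio of 0.41 (interval 0.39 to 0.43). Without the macrophage-gene cells the ratio was 0.40 (interval 0.38 to 0.42). Tmsb10 encodes a close relative of the same function, with 2471 CPM in the knockout and 2250.0 CPM in the wild type, a log2 ratio of 0.13 (interval 0.12 to 0.15). Both log2 ratios stayed above 0 under every scaling tried, with the lowest values at 0.29 for Tmsb4x and 0.02 for Tmsb10. At its lowest value Tmsb10 was about level between the libraries, so whether it is higher depends on the scaling.

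Pfn1 encodes profilin-1, which hands monomers to growing filament ends. It stood at 320.5 CPM in the knockout and 310.9 CPM in the wild type, a log2 ratio of 0.04 (interval -0.01 to 0.09). The left-out knockout cells of under 1% mitochondrial UMIs held Pfn1 at 495.4 CPM, and with no lower mitochondrial limit the log2 ratio was 0.15. Cap1 encodes cyclase-associated protein 1, which helps cofilin and recharges monomers. It had 106 UMIs in each library, 5.82 CPM in the knockout and 4.56 CPM in the wild type, and no difference was detectable at this depth (log2 ratio 0.35, interval -0.05 to 0.76). Capzb, the beta subunit of the protein that caps growing ends, stood at 151.5 and 174.3 CPM, a log2 ratio of -0.20 (interval -0.27 to -0.13). Actin RNA was far lower in the knockout: only 0.214% and 0.122% of genes of at least 10 CPM had a lower log2 ratio than Actb and Actg1. Set against it, nearly all genes therefore stand higher in the knockout, the members among them. For each 100 UMIs of Actb and Actg1 there were 604.4 UMIs of Tmsb4x and Tmsb10 in knockout cells and 129.2 in wild-type cells. For Cfl1 and Dstn together the figures were 146.0 and 42.2, and for Wdr1 2.06 and 1.13.

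With the endoderm-gene-high cells of both libraries left out, which keeps 637 knockout and 890 wild-type cells, the difference in Tmsb4x was larger. It stood at 2131 CPM in the knockout and 1463 CPM in the wild type, a log2 ratio of 0.54 (interval 0.52 to 0.56). In this comparison 1 member was higher, Tmsb4x, where 7.39% of genes were, and 1 was lower, Wdr1, where 4.12% were. Wdr1 stood at 14.2 and 32.7 CPM, a log2 ratio of -1.20, and Cfl1 and Capzb had ratios of -0.25 and -0.26. Without the macrophage-gene cells as well, the ratios of Tmsb4x and Wdr1 were 0.54 and -1.21, so again 1 member was higher, where 7.35% of genes were, and 1 lower, where 4.16% were.

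In the same cells the 10th percentile, median and 90th percentile of the Tmsb4x level per cell were 741.6, 1943 and 3701 CPM over 637 knockout cells and 329.9, 1318 and 2708 CPM over 890 wild-type cells. The wild type reached lower, to cells with no UMI, while all 637 knockout cells held Tmsb4x and the lowest stood at 112.2 CPM. This contrast depends on leaving out the endoderm-gene-high cells. In all kept cells 725 of 731 knockout and 889 of 893 wild-type cells held Tmsb4x, with 10th percentiles of 278.0 and 322.8 CPM. Outside the endoderm-gene-high cells, at 10562 UMIs per cell, the squared coefficient of variation (CV2, variance over squared mean) of Tmsb4x was 0.369 in the knockout against 0.752. This is a log2 ratio of -1.03. The wild-type value rests much on 1 cell, which held 242 Tmsb4x UMIs after thinning and no UMI of the macrophage genes, where the next held 89. Without that cell, a choice made after seeing the data, the wild-type CV2 was 0.498 and the log2 ratio -0.43. With macrophage-gene cells left out as well it was -0.48. The thinned means differed too, at 22.4 UMIs in the knockout against 15.4, and CV2 declines with the mean. Variance over mean was 8.27 in the knockout against 11.6 with that cell and 7.52 without it, so its direction depends on 1 cell.

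In all kept cells the log2 ratio of CV2 for Tmsb4x was -0.07, and 0.41 without that wild-type cell. With macrophage-gene cells left out it was -0.61, and 0.00 without that cell as well, so no fixed direction was seen. The other members of like mean (at least 0.5 thinned UMIs and within 0.5 log2 units between the libraries) lay between -0.26 for Pfn1 and 0.39 for Capzb, where 2037 genes had a 10th percentile of -0.28 and a 90th of 0.38. These end values depended on depth. The ratio for Pfn1 was 0.05 at 15000 UMIs per cell, and that for Capzb was 0.09 at 5000 UMIs.

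Arpc2 is a core subunit of the Arp2/3 complex, which starts filament branches. It stood at 206.2 CPM in the knockout and 198.1 CPM in the wild type, a log2 ratio of 0.06 (interval -0.01 to 0.12), and at -0.05 (interval -0.12 to 0.01) without endoderm-gene-high cells. In that second comparison all 9 subunit genes of the complex had ratios below 0, as did 2715 of 6454 genes, with a median of -0.14 against 0.06 over all genes. The lowest was Arpc1b, at 95.6 CPM in the knockout and 134.5 CPM in the wild type (-0.49, interval -0.58 to -0.40). Arpc5 (-0.41), Arpc4 (-0.35) and Arpc3 (-0.29) came next, and Arpc2 was the nearest to 0.

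**Figure D2:**
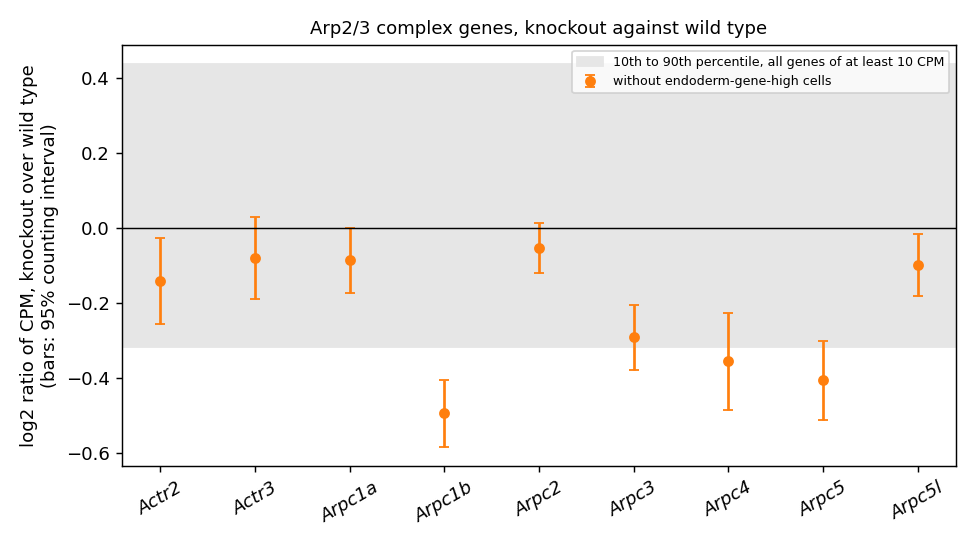
Log2 ratio of CPM, knockout over wild type without endoderm-gene-high cells, for the 9 subunit genes of the Arp2/3 complex. Bars are 95% counting intervals and the grey band spans the 10th to 90th percentile of all genes of at least 10 CPM. All 9 points lie below 0, from -0.49 for Arpc1b to -0.05 for Arpc2.

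A list of 57 other genes of actin assembly and turnover was read beside the members. It held 55 genes of the matrices, and 37 had at least 10 CPM. In all kept cells 2 of the 37 were lower, where 3.95% of all genes were, and 1 was higher, where 10.2% were. The median log2 ratio was 0.04, against 0.09 over all genes. Those lower were Add3, which encodes an adducin of the membrane skeleton (9.34 against 14.4 CPM, log2 ratio -0.63), and Twf2, which encodes a twinfilin that binds monomers and filament ends (42.8 against 63.3 CPM, -0.57). The gene that was higher was Eps8, which encodes a capping and bundling protein (14.5 against 8.12 CPM, 0.84). Without endoderm-gene-high cells Eps8 had a ratio of 0.30 (interval -0.02 to 0.61), while Add3 and Twf2 stood at -0.75 and -0.60. Next to these in the list were Wasf3 (-0.46), Arpc1b (-0.43) and Coro1b (-0.33) on the lower side, and Nckap1 (0.46), Diaph1 (0.35), Abi2 (0.30) and Limk2 (0.25) on the higher side. Limk2, which encodes a kinase that switches cofilin off, stood at 43.7 CPM in the knockout and 36.8 CPM in the wild type.

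The widest differences among the members lay within the knockout library. In the 94 endoderm-gene-high cells Tmsb4x and Dstn were lower than in the other 637 knockout cells by at least 0.5 log2 units, and Arpc2 and Wdr1 were higher. Of the 8 members with at least 10 CPM, 2 were lower, where 13.7% of 6968 genes were, and 2 were higher, where 29.9% were. The members' median was 0.05, against 0.11 over all genes. With TMM scaling 20.98% of all genes were lower and 23.3% higher, the median over all genes moved by -0.18, Tmsb10 passed the lower limit at -0.54 and Wdr1 no longer passed the higher one at 0.42. The groups are cells of 1 library, so there is no replicate of this difference.

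**Figure D3:**
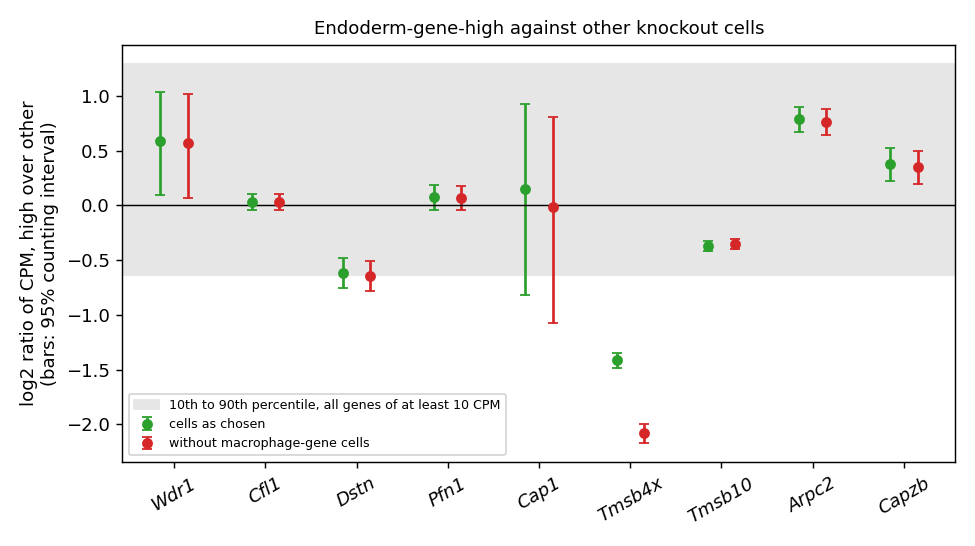
Log2 ratio of CPM, endoderm-gene-high over other knockout cells, for the 9 members, with the cells as chosen (green) and without macrophage-gene cells (red). Bars are 95% counting intervals and the grey band spans the 10th to 90th percentile of all genes of at least 10 CPM. Tmsb4x moves from -1.42 to -2.08 without the macrophage-gene cells and is the only member wholly below the band in both.

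Tmsb4x stood at 798.4 CPM in the endoderm-gene-high cells and 2131 CPM in the other knockout cells. This was a log2 ratio of -1.42 (interval -1.49 to -1.35), and 2.64% of all genes had a lower one. Without the macrophage-gene cells it stood at 497.9 and 2107 CPM, a ratio of -2.08 (interval -2.17 to -1.995), and again 2 members were lower, where 13.8% of genes were, and 2 higher, where 29.3% were. The median endoderm-gene-high cell then held 166.6 CPM, against 1919 CPM in the other knockout cells, and the groups overlapped, with single cells up to 4836 CPM in the former and down to 112.2 CPM in the latter. A raised share of UMIs from chromosome 8, above 1.2 times the wild-type median, was common in the knockout. Of the 731 knockout cells 362 had a usual share, as did 805 of the 893 wild-type cells. In cells of usual share all 9 members kept their knockout over wild-type log2 ratio within 0.1 units or within its counting interval. The share was raised in 61 of the 94 endoderm-gene-high cells and in 308 of the 637 other knockout cells. In the 31 endoderm-gene-high and 326 other knockout cells whose share was at most 1.2 times the wild-type median, without macrophage-gene cells, Tmsb4x stood at 471.0 and 2015 CPM, a log2 ratio of -2.10. With the macrophage-gene cells kept in this subset the ratio was -0.59.

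**Figure D4:**
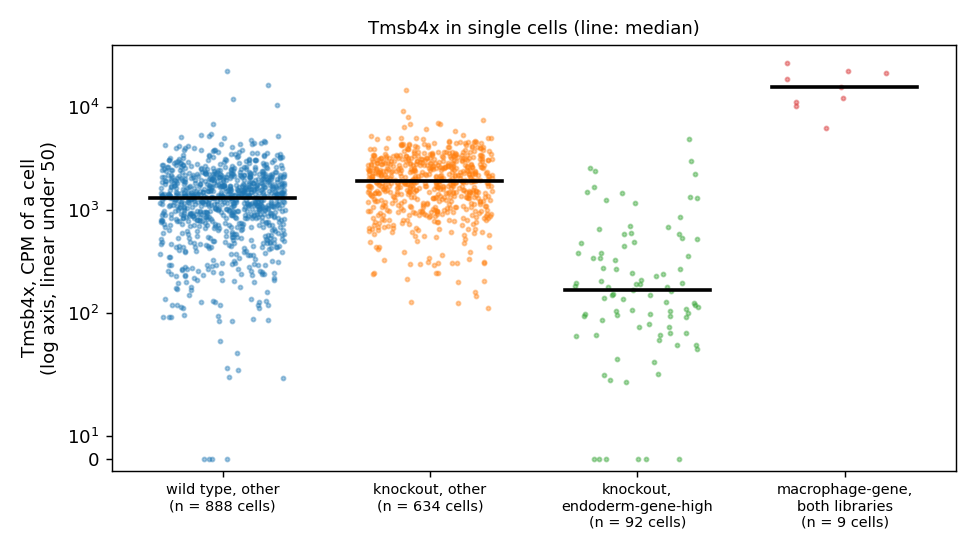
Tmsb4x level of single cells in CPM (log axis, linear under 50), for wild-type and knockout cells outside the endoderm-gene-high group, knockout endoderm-gene-high cells and macrophage-gene cells. Macrophage-gene cells are left out of the first 3 groups, each point is a cell and the line is the median. The median is 1316 CPM in the wild type, 1919 CPM in the knockout and 166.6 CPM in the endoderm-gene-high cells.

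Tmsb4x was about level between cells with 0 and with 1 to 9 endoderm-gene UMIs, and lower in cells with more. In knockout cells without macrophage-gene cells it stood at 2122 CPM in the 439 cells with 0 such UMIs and 2079 CPM in the 195 cells with 1 to 9. It stood at 851.0 CPM in the 43 cells with 10 to 49 and at 206.7 CPM (interval 181.9 to 233.8) in the 49 cells with 50 or more. Its relative Tmsb10 went from 2536 to 2008 CPM between the first and last of these groups, so its level differed far less. Of each 100 UMIs of the pair, Tmsb4x gave 20.01 in the endoderm-gene-high cells (interval 19.0 to 21.1) and 45.3 in the other knockout cells (interval 44.9 to 45.7), both without macrophage-gene cells.

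**Figure D5:**
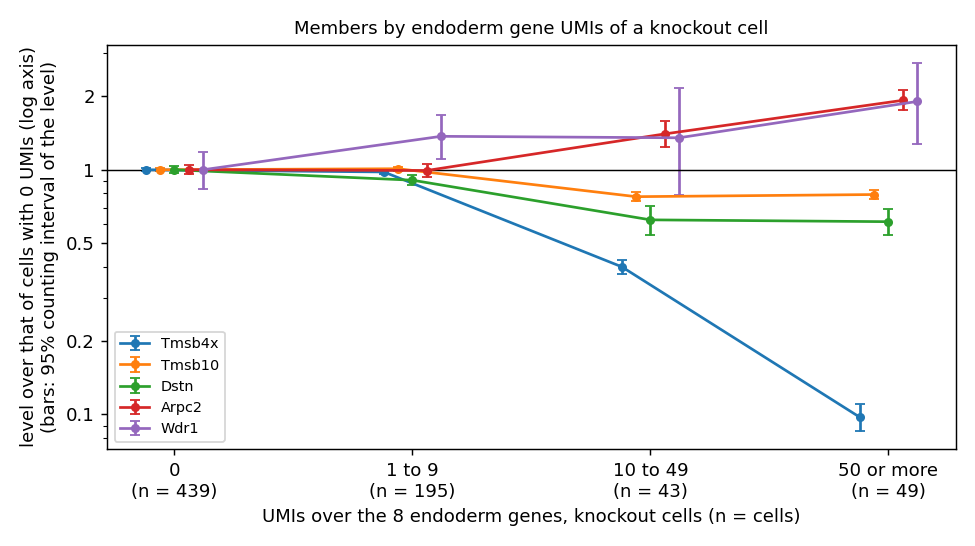
Levels of 5 members in knockout cells grouped by their UMIs over the 8 endoderm genes, without macrophage-gene cells, divided by the level in cells with 0 such UMIs (log axis). Bars are 95% counting intervals of the level. Tmsb4x is lowest in the cells with 50 or more, at 206.7 against 2122 CPM, Dstn and Tmsb10 are lower to a lesser degree, and Arpc2 is higher.

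Dstn showed the same direction at a smaller size. It stood at 214.9 CPM in the endoderm-gene-high cells and 330.2 CPM in the others, a log2 ratio of -0.62 (interval -0.76 to -0.48), while Cfl1 was level at 768.7 and 754.1 CPM (0.03, interval -0.05 to 0.10). Of each 100 UMIs of this pair Dstn gave 21.8 (interval 20.1 to 23.6) in the endoderm-gene-high cells and 30.5 (interval 29.8 to 31.1) in the others. Pfn1 (0.07) and Cap1 (0.15) had intervals that include 0.

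Arpc2 was the highest of the members in this comparison. It stood at 325.7 CPM in the endoderm-gene-high cells and 189.3 CPM in the others, a log2 ratio of 0.78 (interval 0.67 to 0.90), and at 364.1 CPM in the 49 cells with 50 or more endoderm-gene UMIs. The rest of its complex had the same direction for 7 of 8 genes, where 4022 of 6968 genes had ratios above 0, with a median of 0.50, from -0.05 for Arpc5l to 0.83 for Arpc5. Capzb stood at 189.6 and 146.1 CPM (0.38, interval 0.22 to 0.53). Wdr1 had 48 UMIs (21.3 CPM) in the endoderm-gene-high cells and 227 (14.2 CPM) in the others. The log2 ratio was 0.59 with a wide interval of 0.10 to 1.03, and the wild type stood at 32.7 CPM. Of the endoderm-gene-high cells, the 33 of usual chromosome 8 share held Wdr1 at 30.5 CPM (23 UMIs). Without macrophage-gene cells these were 31 cells, at 29.1 CPM (21 UMIs). The 61 of raised share held Wdr1 at 16.6 CPM (25 UMIs). These values rest on few UMIs and have no interval, and whether Wdr1 differs with that share was not tested. Actb and Actg1 were higher in the endoderm-gene-high cells than in the other knockout cells, with ratios of 0.77 and 0.56.

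The list of other actin turnover genes was read in the endoderm-gene-high cells too. Of the 37 with at least 10 CPM, 17 were higher by 0.5 log2 units, where 29.9% of all genes were, and 4 were lower, where 13.7% were. Their median was 0.47, against 0.11 over all genes. The 4 lower were Wasf3 (-1.73) and Wasf1 (-1.23), which encode WAVE proteins that switch on Arp2/3, the formin gene Diaph1 (-0.78) and the capping gene Capg (-0.57, and -1.06 without macrophage-gene cells). The highest, named after their values were seen, were Eps8, at 47.0 against 9.91 CPM (2.25), Tmod3, which encodes a tropomodulin (1.42), and Abi2, which encodes another part of the WAVE complex (1.31). Without the macrophage-gene cells 16 were higher and 4 lower.

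Members showed weak correlations from cell to cell. Over the 36 pairs of members, the Pearson correlation of log2(thinned count + 1) had a median of 0.03 across 661 knockout cells and 0.05 across 800 wild-type cells, and the highest was that of Tmsb4x and Tmsb10, at 0.24 and 0.33. Cells of 1 library share their preparation, so these values are a description. The 661 knockout cells include 91 endoderm-gene-high cells, whose levels of Tmsb4x and Arpc2 differ from those of the others. No correlation is given without them, so the knockout values do not describe 1 kind of cell. Among genes of at least 50 CPM, Cfl1 was most like Prdx1 (0.30 in both libraries), Ppia (0.29 and 0.30) and Ran (0.30 and 0.27), and the same 3 genes came first for Dstn, at 0.16 to 0.22. Tmsb4x was most like Mylpf, a myosin light chain gene (0.49 in the knockout, 0.33 in the wild type), H2afz (0.34 and 0.27) and Ccnd3 (0.29 and 0.27). Tmsb10 was most like Rpl41 and Rpl37a, which encode ribosomal proteins. Pfn1 was most like Cfl1 (0.23 and 0.22), followed by Eif5a and H2afz. Arpc2 was most like Itm2b (0.22 and 0.14), Srgn (0.22 and 0.13) and S100a10 (0.19 and 0.13), and Capzb like Taldo1, Cdc20 and Gapdh (0.13 to 0.18). For Wdr1 (S100a10, Ctnnb1 and Actg1) and Cap1 (Farsb, Fblim1 and Dstn) no value passed 0.12.

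Most members were somewhat higher in wild-type cells with more actin RNA. Cells thinned to 10562 UMIs were split in 3 by their summed Actb and Actg1 UMIs, with medians of 18, 27 and 44. Wdr1 averaged 0.262, 0.311 and 0.451 UMIs per cell in these groups (SD 0.533, 0.553 and 0.673, n = 267, 267 and 266 cells) and Dstn 2.80, 3.22 and 3.77. Tmsb4x averaged 13.7, 15.5 and 17.8 UMIs (SD 9.54, 11.9 and 19.7), Capzb 1.64, 1.74 and 2.02, and Arpc2 1.92, 2.01 and 2.11. These groups keep the macrophage-gene cells and the wild-type cell of 242 Tmsb4x UMIs. How far they carry the Tmsb4x means was not tested. Pfn1 averaged 2.94, 3.30 and 3.36 UMIs and Cfl1 8.68, 9.50 and 9.52, while Tmsb10 (24.2, 24.5 and 23.0) and Cap1 (0.0449, 0.0375 and 0.0602) had no single direction. In the knockout, with actin medians of 4, 7 and 11, Wdr1 averaged 0.113, 0.109 and 0.227 UMIs, while Dstn averaged 3.38, 3.23 and 3.15. These knockout groups include endoderm-gene-high cells, which averaged 5.29 Actb, 6.34 Actg1, 0.231 Wdr1 and 2.12 Dstn UMIs. The other knockout cells averaged 3.04, 4.17, 0.137 and 3.43, and the split was not made without the endoderm-gene-high cells. The spread between cells within each actin group was wider than the steps between groups. The wild-type cells of most actin were also shallower before thinning, with a median of 23365 UMIs against 28878 in the cells of least actin.

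The members' places in GRCm38 bear on how their reads may be counted. Wdr1, Tmsb4x and Tmsb10 lie on the minus strand: Wdr1 on chromosome 5 (38526813 to 38563221), Tmsb4x on chromosome X (167207093 to 167209315) and Tmsb10 on chromosome 6 (72957347 to 72958748). Tmsb4x, Tmsb10, Dstn (chromosome 2), Pfn1 (chromosome 11), Arpc2 (chromosome 1) and Capzb (chromosome 4) overlap no gene of the annotation. Wdr1 overlaps 1 annotated gene, which is not among the genes of the matrices. Cfl1, on chromosome 19 from 5490455 to 5495201, overlaps Snx32 on the opposite strand, which held 32 UMIs. Cap1, on chromosome 4 from 122859047 to 122886056, overlaps Ppt1 on the opposite strand, which held 580 UMIs, more than the 212 of Cap1 itself. Whether strand was used in counting, and how reads common to near-identical genes such as Actb and Actg1 were assigned, is not given in the sources used here.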

How the data were processed

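The authors deposited raw UMI counts per gene and cell, as whole numbers per the file headers, for 2 libraries. The submitters' processing notes name Cell Ranger 2.0.0, Seurat 3.1.1 and mm10 without roles; counting rules and cell calling are not given in the sources used here. Deposited cells were filtered as described above. Counts were summed over cells, scaled to CPM, and compared as log2 ratios with 0.5 counts added to each sum (Python 3.11.15, numpy 2.4.6, scipy 1.17.1). Intervals are exact (conditional on the total for ratios, Poisson for levels, Clopper-Pearson for shares). For shares, CV2 and correlations each cell was thinned at random to 10562 UMIs, the 10th percentile over both libraries, which left out 70 knockout and 93 wild-type cells. Doublets were called with Scrublet in scanpy 1.11.5, which called 1 knockout and 2 wild-type cells, and none were removed. TMM factors came from edgeR 4.0.16. The log2 ratios, their intervals, the thinning and CV2 were tested on simulated counts that had counting error only, and the other steps were not tested in this way. GENCODE M21 (GRCm38) matched 27645 of 27998 gene identifiers. The members, the 57-gene list, the marker lists and the limits were chosen with earlier results of these data known. Named genes were all members, the 5 lowest and 5 highest of the list, and per member the 3 genes of at least 50 CPM with the greatest smaller correlation of both libraries.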

Additional observations from a re-analysis of the deposited data

How the results depend on the processing

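No paired analysis was possible because there is only 1 library of each genotype. No setting reversed a called value. In the knockout against wild type, the count of members that were lower became 0 at a gene minimum of 50 CPM, which leaves Wdr1 out, and the count that were higher became 1 (Tmsb4x) at a limit of 0.25 or without endoderm-gene-high cells. The members' median became -0.10 with TMM and -0.11 with median-of-ratios scaling, and that of the 57-gene list -0.073 and -0.085. Of that list, 4 genes were lower with either scaling or with no gene minimum, 8 at a limit of 0.25, 1 at a minimum of 50 CPM or in cells of usual chromosome 8 share, and 0 at a limit of 1. The number higher was 4 at a minimum of 1 CPM, with no minimum or at a limit of 0.25, 3 in cells of usual chromosome 8 share, 2 in those without macrophage-gene cells or with fibroblast-gene cells kept, and 0 at a minimum of 50 CPM, a limit of 1 or without endoderm-gene-high cells. In the endoderm-gene-high against other knockout cells, 1 member was higher with either scaling, at a minimum of 50 CPM or with fibroblast-gene cells kept, and 0 at a limit of 1, where 1 was lower. The members' median was -0.12 with TMM and -0.11 with median-of-ratios scaling. Except where a limit or minimum sets the count, the cause was not tested. Settings without macrophage-gene cells, or without 1 wild-type cell high in Tmsb4x, were chosen after seeing the data.

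Over the settings tried, the knockout over wild-type log2 ratio ranged from -1.23 to -0.73 for Wdr1, from 0.29 to 0.54 for Tmsb4x and from -0.37 to -0.13 for Cfl1. In the endoderm-gene-high cells the ratio of Tmsb4x ranged from -2.41, at a limit of 20 endoderm-gene UMIs, to -0.59, that of Wdr1 from 0.12 to 0.95 and that of Arpc2 from 0.61 to 0.88. Depth limits Cap1 and the small groups.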
